A study of Homo sapiens with 2 samples.

Results

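Interferon-stimulated genes are the antiviral genes that a cell switches on when it meets interferon. A fixed list of 44 such genes was followed in PC3, a prostate cancer cell line, and in PC3CR, its cabazitaxel (CBZ)-resistant subline. CBZ is a taxane that stabilises microtubules. A gene was measured when a probe set named it and no other gene, under its current or an older symbol. This held for 43 of the 44 genes, among 19775 genes in all, and the remaining gene was not analysed here. Both lines were kept in RPMI-1640 with fetal bovine serum, and the labels name no interferon treatment. PC3CR was passaged in CBZ for 18 months and examined after 3 months without it. Total RNA from each line was hybridised to 1 array, and PC3CR is a single subline of PC3. No difference below therefore has a replicate check, no p-value is given, and the small number of arrays bounds how precise any value can be.

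The response works in steps. Sensors such as RIGI and IFIH1 recognise viral RNA in the cytoplasm and cause interferon to be made. Interferon then binds receptors on the same or neighbouring cells, JAK kinases phosphorylate STAT proteins, and a complex of STAT proteins with IRF9 binds a short DNA motif, the interferon-stimulated response element, in front of the target genes. Their products block viral entry, degrade viral RNA, hold virus particles at the membrane, or damp the signal again. Tumour cells can express a part of these genes without infection. The members were divided by role into IFITM proteins, other effectors, RNA sensors, the ISG15 conjugation system, signalling proteins and other induced genes.

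Values are log2 robust multichip average (RMA) values, and a difference is PC3CR minus PC3 on that scale, so that 1 is a 2-fold difference. The group of interferon-stimulated genes differed between the lines in both directions. Of the 43 genes, 11 were at least 2-fold lower in PC3CR, 8 were higher by that much and 24 lay within 2-fold. The number higher was 5 when probe sets were averaged (without HERC6, OAS3 and PARP9) and 5 after loess centring (without HERC5, ISG20 and USP18). Thus 2 of the 8, GBP2 and IFI6, were past 2-fold under every scaling and choice of probe sets, although IFI6 had only 1 probe set. Over all 19775 genes the percentages were 6.72% lower and 9.84% higher, against 25.6% and 18.6% of the members. When every probe set was counted, 20% of the 80 for members were at least 2-fold lower and 11.25% higher. Of all probe sets naming 1 gene, 5.89% were lower and 8.94% higher by that much. Counted in this way, the higher share of the members was near that of all probe sets. The median difference of the members was -0.23, and that of all genes was -0.04. The median size of the difference, regardless of sign, was 0.83 for the members and 0.34 for all genes. The members were also the brighter set. The brighter array reached the median of all probe sets for 37 of the 43 members and for 13587 of the 19775 genes. No comparison with genes of like level was made. At a 4-fold threshold 9 members were lower and 2 were higher, against 2% and 1.76% of all genes.

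**Figure D1:**
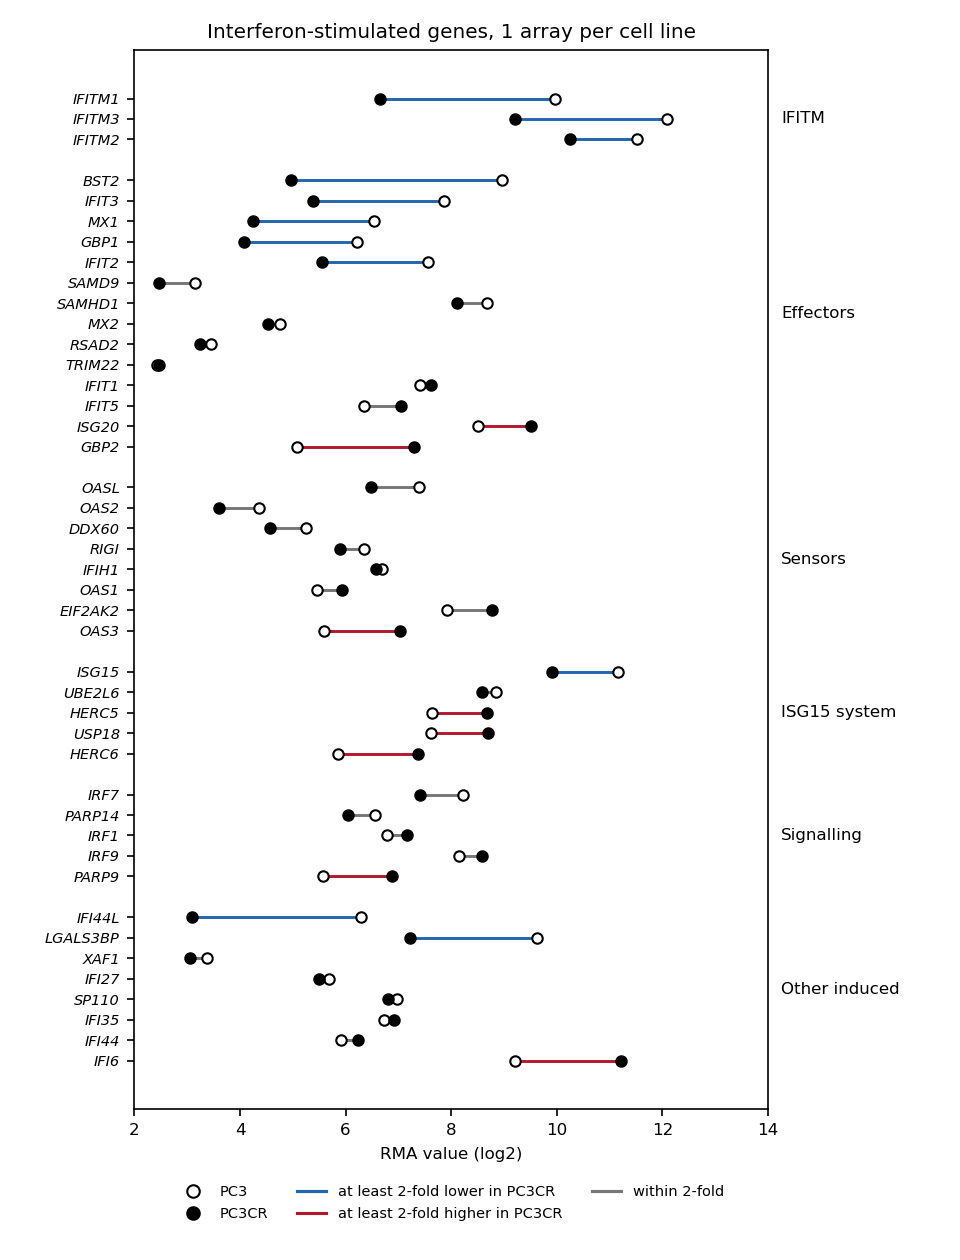
RMA values (log2, horizontal axis) of the 43 measured interferon-stimulated genes in PC3 (open circles) and PC3CR (filled circles), 1 array each, arranged by subgroup and within it by difference. Blue lines join values at least 2-fold lower in PC3CR (11 genes), red lines at least 2-fold higher (8 genes) and grey lines within 2-fold (24 genes).

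The subgroup medians lay on both sides of 0, and differences between subgroups could not be tested. The IFITM genes had a median of -2.88, the other effectors -0.40, the sensors -0.28 and the other induced genes -0.19. The ISG15 conjugation system had a median of 1.04 and the signalling genes 0.38. The median of the sensors was 0.18 when probe sets marked by the manufacturer as cross-hybridising (identifiers ending in _x_at) were left out, and that of the other induced genes was -0.0036. With only genes whose brighter array reached the median of all probe sets, the median of the other effectors was -1.28 and that of the sensors -0.12. All medians but that of the IFITM genes summarise members of both directions.

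**Figure D2:**
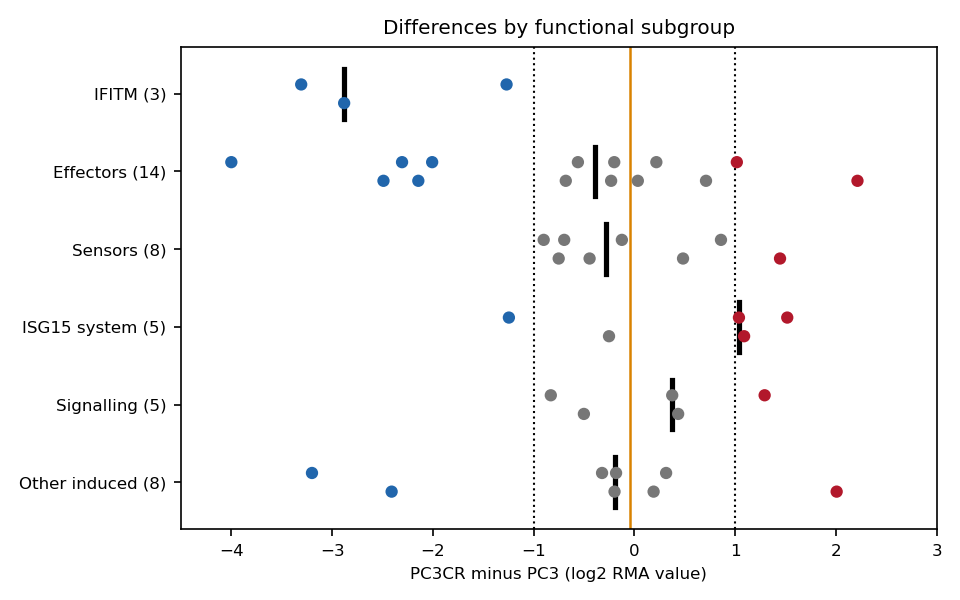
PC3CR minus PC3 (log2 RMA value, horizontal axis) for each member, each point a gene, and the count of genes measured in brackets. Blue points are at least 2-fold lower in PC3CR, red at least 2-fold higher and grey within 2-fold (dotted lines); black bars are subgroup medians and the orange line is the median of all genes (-0.04). All 3 IFITM genes lie left of the lower line, and 3 of 5 genes of the ISG15 system lie right of the upper one. Of all genes 6.72% were at least 2-fold lower and 9.84% higher by that much.

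The promoters of genes at both ends of the range are shown side by side to compare where they hold the motif through which interferon acts. The 170 bases before the gene start are printed 5′ to 3′ on the gene's strand, from RefSeq on GRCh38.p14, for the 4 lowest and the 4 highest members past 2-fold that had a single promoter window. Capitals mark each complete match of the response element core (GAAA, any 2 bases, GAAA, or on the opposite strand TTTC, any 2 bases, TTTC), and overlapping matches run together.
BST2 (chr19:17405631-17405800, minus strand): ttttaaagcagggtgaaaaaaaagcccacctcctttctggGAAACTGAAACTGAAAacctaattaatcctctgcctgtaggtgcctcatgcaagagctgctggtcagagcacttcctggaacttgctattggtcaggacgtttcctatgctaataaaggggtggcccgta
IFITM1 (chr11:313870-314039, plus strand): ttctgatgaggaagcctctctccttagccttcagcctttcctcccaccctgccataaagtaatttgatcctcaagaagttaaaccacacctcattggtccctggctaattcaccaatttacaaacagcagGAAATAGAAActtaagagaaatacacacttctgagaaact
IFI44L (chr1:78620278-78620447, plus strand): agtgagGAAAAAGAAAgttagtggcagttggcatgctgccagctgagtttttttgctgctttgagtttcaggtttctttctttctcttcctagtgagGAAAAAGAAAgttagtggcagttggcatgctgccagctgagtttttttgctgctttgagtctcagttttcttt
IFITM3 (chr11:320861-321030, minus strand): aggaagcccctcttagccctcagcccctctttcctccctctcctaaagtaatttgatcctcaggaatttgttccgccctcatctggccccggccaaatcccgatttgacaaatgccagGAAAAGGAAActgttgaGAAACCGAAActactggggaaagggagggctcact
IFI6 (chr1:27672193-27672362, minus strand): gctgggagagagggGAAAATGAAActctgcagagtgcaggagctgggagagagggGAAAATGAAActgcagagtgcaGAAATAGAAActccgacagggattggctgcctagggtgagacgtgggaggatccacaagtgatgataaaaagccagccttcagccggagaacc
HERC6 (chr4:88378682-88378851, plus strand): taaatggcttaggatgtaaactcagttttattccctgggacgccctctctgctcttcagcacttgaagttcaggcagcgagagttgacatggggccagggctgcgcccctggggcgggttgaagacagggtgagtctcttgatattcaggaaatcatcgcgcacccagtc
OAS3 (chr12:112938304-112938473, plus strand): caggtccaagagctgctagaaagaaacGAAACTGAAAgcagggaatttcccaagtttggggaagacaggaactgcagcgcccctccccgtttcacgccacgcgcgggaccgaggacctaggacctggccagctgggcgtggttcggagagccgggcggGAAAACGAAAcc
HERC5 (chr4:88456949-88457118, plus strand): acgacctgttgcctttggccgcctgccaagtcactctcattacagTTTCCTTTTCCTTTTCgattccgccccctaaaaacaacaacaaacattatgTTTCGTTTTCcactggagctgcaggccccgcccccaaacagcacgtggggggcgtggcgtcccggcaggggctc
BST2, IFI44L and IFITM3, lower in PC3CR, each show 2 matches in these stretches. IFITM1, also lower, shows 1, and a second match crosses its gene start. IFI6 and HERC5, higher in PC3CR, show 3 matches each, OAS3 shows 2, and HERC6 shows none. In IFI44L the same match lies in both copies of a repeated stretch.

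Promoter windows of 250 bases before to 50 bases after the start were found for 34 of the 43 members. The response element core was present in 24 of these 34 genes (70.6%) and in 4.38% of all 27305 genes with a window. Among members with a window it was present in 9 of 9 lower members, in 5 of 6 higher members and in 10 of 19 members within 2-fold. The letters were therefore found on both sides of the comparison. A second motif, TTC and GAA with any 3 bases between them (the same on both strands), the gamma-activated site through which interferon gamma acts, was present in 11 of 34 members (32.4%) and in 9.38% of all genes. It occurred in 3 of the 9 lower members, BST2, IFITM1 and MX1, in 0 of the 6 higher members and in 8 of the 19 members within 2-fold. A match describes the sequence and does not show binding.

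**Figure D3:**
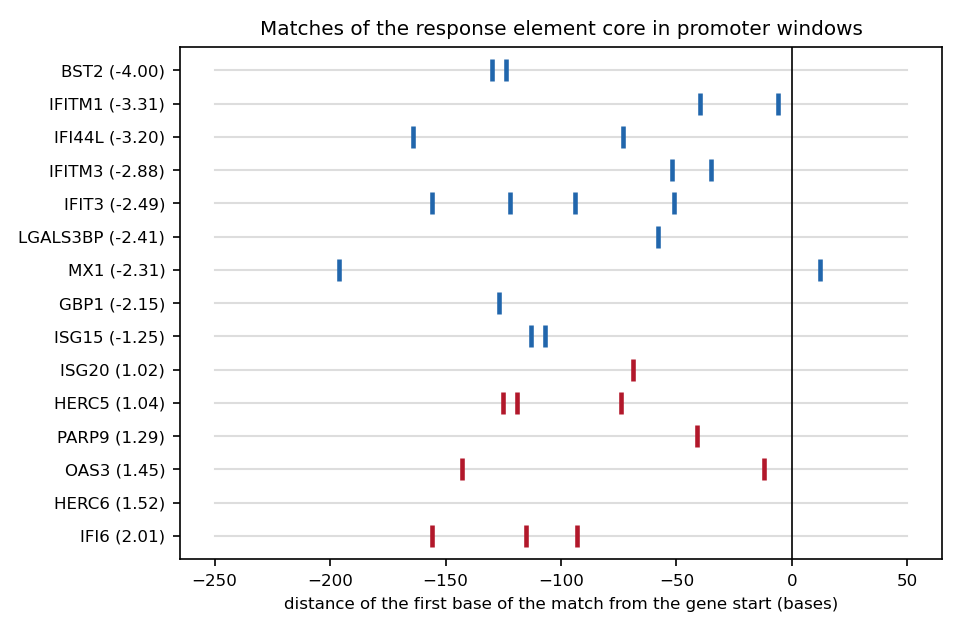
Positions of the response element core (first base of each match, in bases from the gene start, horizontal axis) in the promoter windows of the 9 lower (blue) and 6 higher (red) members that had a window, with the PC3CR minus PC3 difference in brackets. Grey lines span the window, and matches from several windows of a gene (IFIT3, MX1 and PARP9) share a line. HERC6 is the member without a match, and the lower and the higher genes both carry matches before the start.

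IFITM proteins sit in cell membranes and hinder the fusion of viruses with them. All 3 IFITM genes were at least 2-fold lower in PC3CR, against 6.72% of all genes. IFITM1, found mainly at the cell surface, had a value of 9.97 in PC3 against 6.66 in PC3CR, differing by -3.31 or 9.90-fold. IFITM3, found in endosomes, had 12.09 in PC3 against 9.21 in PC3CR, differing by -2.88 or 7.37-fold. IFITM2 had 11.51 and 10.24, a difference of -1.27 or 2.41-fold. Each gene was represented by 1 probe set, and those of IFITM2 and IFITM3 were of the cross-hybridising class. These genes are close copies of one another, and how much of the signal of one came from another was not tested.

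Among the other effectors, 5 of 14 were at least 2-fold lower, 2 were higher by as much and 7 lay within 2-fold. Of all genes 6.72% were lower and 9.84% higher by that much. BST2, also called tetherin, holds budding virus particles at the cell surface. Its value was 8.96 in PC3 against 4.96 in PC3CR, differing by -4.00 or 16.0-fold. This was the lowest difference among the members, and 80 of all 19775 genes had a lower one. In PC3CR the value was close to the median of all probe sets on that array (4.81), which limits how far the fold can be read.

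The IFIT proteins bind foreign RNA and block its translation, and the 4 family members did not move alike. IFIT3 had 7.87 in PC3 against 5.37 in PC3CR, differing by -2.49. IFIT2 had 7.56 and 5.55, a difference of -2.01. For both genes the second probe set was also more than 2-fold lower. IFIT1, by contrast, had 7.41 in PC3 against 7.63 in PC3CR, differing by 0.22. IFIT5 had 6.35 and 7.06, a difference of 0.71, while its second probe set differed by 0.00. IFIT2 and IFIT3 were thus lower by 4.02-fold and 5.62-fold, and IFIT1 and IFIT5 lay within 2-fold.

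MX1 and MX2 are dynamin-like GTPases. MX1, which acts against influenza and other RNA viruses, had 6.54 in PC3 against 4.24 in PC3CR, differing by -2.31 or 4.95-fold. In PC3CR this value was below the median of all probe sets, so the fold is uncertain. MX2 had 4.76 and 4.53, below that median on both arrays. The guanylate-binding proteins attack the membranes around intracellular pathogens, and here the family members had opposite signs. GBP1 had 6.21 in PC3 against 4.07 in PC3CR, the latter also below that median, differing by -2.15. GBP2 had 5.07 and 7.29, a difference of 2.21 or 4.64-fold. All 4 probe sets of GBP1 were lower, by between -2.15 and -0.22, and both of GBP2 were higher, by 0.97 and 2.21.

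ISG20, an exonuclease that degrades RNA, had 8.50 in PC3 against 9.52 in PC3CR, differing by 1.02, and its second probe set differed by 1.06. This difference lies at the threshold, and after loess centring it was 0.96. SAMHD1, which depletes the nucleotides that viruses need for reverse transcription, had 8.67 and 8.11, a difference of -0.56. The antiviral genes RSAD2, SAMD9 and TRIM22 were below the median of all probe sets on both arrays, where a difference is hard to read. They differed by -0.20, -0.68 and 0.03.

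Of 8 RNA sensors 1 was at least 2-fold higher and 0 were lower by as much, against 9.84% and 6.72% of all genes. RIGI, listed under its older symbol DDX58, had 6.34 in PC3 against 5.90 in PC3CR, differing by -0.45. This came from a cross-hybridising probe set, and its other 2 probe sets were higher in PC3CR, the brighter of them by 0.56. No direction is therefore given for RIGI. IFIH1, the sensor of long double-stranded RNA also known as MDA5, had 6.70 and 6.57, a difference of -0.12. All 3 of its probe sets were lower, but those at -1.17 and -0.32 were below the median of all probe sets on both arrays. DDX60, a helicase that aids these sensors, had 5.26 and 4.56, a difference of -0.70. EIF2AK2, the kinase PKR that halts translation on double-stranded RNA, had 7.91 and 8.77, a difference of 0.86, while its 3 probe sets averaged 0.45 and the lowest differed by 0.09.

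The oligoadenylate synthetases make a messenger that activates the nuclease RNase L. OAS3 had 5.59 in PC3 against 7.04 in PC3CR, differing by 1.45 or 2.72-fold, but its second, dimmer probe set differed by 0.05. OAS1 had 5.45 and 5.93, a difference of 0.48. OAS2 was below the median of all probe sets on both arrays and differed by -0.75. OASL, which enhances RIGI signalling and makes no messenger, had 7.38 and 6.48, a difference of -0.90. OASL passed 2-fold with loess centring (-1.04) and with quantile normalization (-1.03).

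ISG15 is a ubiquitin-like protein that is attached to newly made proteins. The modifier was lower in PC3CR, and HERC5, HERC6 and the protease USP18 were higher. ISG15 itself had 11.15 in PC3 against 9.91 in PC3CR, differing by -1.25 or 2.37-fold lower. UBE2L6, the conjugating enzyme, had 8.84 and 8.59, a difference of -0.25. HERC5, the main ligase, had 7.64 and 8.67, a difference of 1.04. HERC6, a related ligase, had 5.85 and 7.37, a difference of 1.52, and its second probe set differed by 0.16. USP18, which removes ISG15 and also damps signalling at the interferon receptor, had 7.62 and 8.70, a difference of 1.09. Those of HERC5 and USP18 lie near the threshold and were 0.93 and 0.98 after loess centring, and that of HERC5 was 0.97 after quantile normalization.

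Of 5 measured signalling genes 1 was at least 2-fold higher and 0 were at least 2-fold lower, against 9.84% and 6.72% of all genes. IRF9, the DNA-binding part of the complex that interferon activates, had 8.15 in PC3 against 8.59 in PC3CR, differing by 0.43. IRF7, which drives interferon alpha transcription, had 8.23 and 7.40, a difference of -0.83. IRF1, induced mainly by interferon gamma, had 6.79 and 7.17, a difference of 0.38. PARP9 and PARP14 are ADP-ribosyltransferase family proteins that modulate STAT signalling. PARP9 had 5.58 in PC3 against 6.87 in PC3CR, differing by 1.29, against 0.17 for its second probe set. PARP14 had 6.55 and 6.05, a difference of -0.50.

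The other induced genes held some of the widest differences. IFI44L, of unsettled function, had 6.29 in PC3 against 3.09 in PC3CR, differing by -3.20 or 9.19-fold. Its value in PC3CR was below the median of all probe sets, so the fold is uncertain. LGALS3BP, a secreted glycoprotein that binds galectins, had 9.63 and 7.22, a difference of -2.41 or 5.32-fold. IFI6, a small mitochondrial and endoplasmic reticulum protein that opposes apoptosis, went the other way. It had 9.21 in PC3 against 11.21 in PC3CR, differing by 2.01 or 4.02-fold. The remaining 5 genes of this subgroup lay within 2-fold. IFI27, IFI35, IFI44, SP110 and XAF1 differed by -0.20, 0.19, 0.31, -0.18 and -0.32, and XAF1, a proapoptotic gene, was below the median of all probe sets on both arrays. The value of SP110 came from a cross-hybridising probe set, and 3 of the 5 for this gene were higher in PC3CR, so no direction is given for SP110.

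Several members lie side by side as tandem copies, and their differences were set in map order. The 3 IFITM genes on chromosome 11 were all lower, while the 2 measured neighbours on either side differed by between -0.60 and 0.91. In the IFIT cluster on chromosome 10 the adjacent IFIT2 and IFIT3 differed by -2.01 and -2.49, and the adjacent IFIT1 and IFIT5 differed by 0.22 and 0.71. The neighbours GBP1 and GBP2 on chromosome 1 had opposite signs, as did IFI44L (-3.20) and IFI44 (0.31), also on chromosome 1, although the second probe set of IFI44 differed by -0.31. GBP3, which is not a listed member and lies beside GBP1, differed by -2.83. HERC6 and HERC5 on chromosome 4 were both higher, and so were 2 of the 4 genes around them past 2-fold, ABCG2 by 2.80 and NAP1L5 by 2.71. The part of the neighbourhood in the differences of HERC5 and HERC6 was not tested. Other clusters also had neighbours past 2-fold. LIPA beside IFIT2 differed by 1.17, and PTGFR beside IFI44L, below the median of all probe sets on both arrays, by -1.22. Near MX1 and MX2 on chromosome 21, BACE2 differed by 1.02 and RIPK4 by -2.39. HSPBAP1 beside PARP14 on chromosome 3 differed by -1.07.

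**Figure D4:**
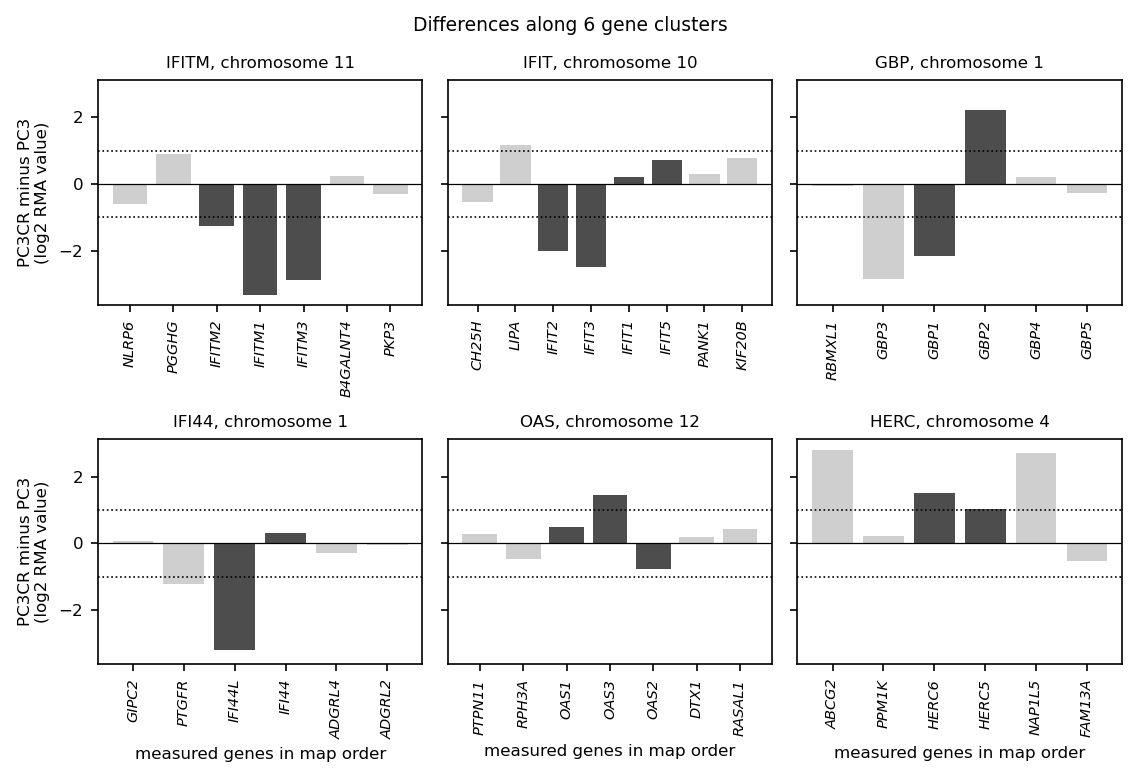
PC3CR minus PC3 (log2 RMA value, vertical axis) of genes in map order in 6 clusters, with members in dark grey and the 2 measured protein-coding genes on either side, and any non-member between them, in light grey. Dotted lines mark 2-fold. The IFITM genes share a direction, whereas the IFIT, GBP, IFI44 and OAS clusters hold neighbours of opposite sign. OAS2 was below the median of all probe sets on both arrays, and the second probe set of IFI44 differed by -0.31.

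Agreement between probe sets of a gene is the internal check that these arrays allow. Of the 23 members with several probe sets, 7 had them on both sides of 0. Of the 19 members past 2-fold, 11 had 1 probe set and 8 had several. In these 8 every probe set lay on the same side of 0, and in 3 of them, IFIT2, IFIT3 and ISG20, every probe set was past 2-fold. When probe sets were averaged, OAS3, HERC6 and PARP9 differed by 0.75, 0.84 and 0.73 and were no longer past 2-fold. Among the lower members this mean could change only IFIT2, IFIT3 and GBP1, which differed by -1.86, -1.88 and -1.39. Every other lower member had 1 probe set, so averaging was no check of it.

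**Figure D5:**
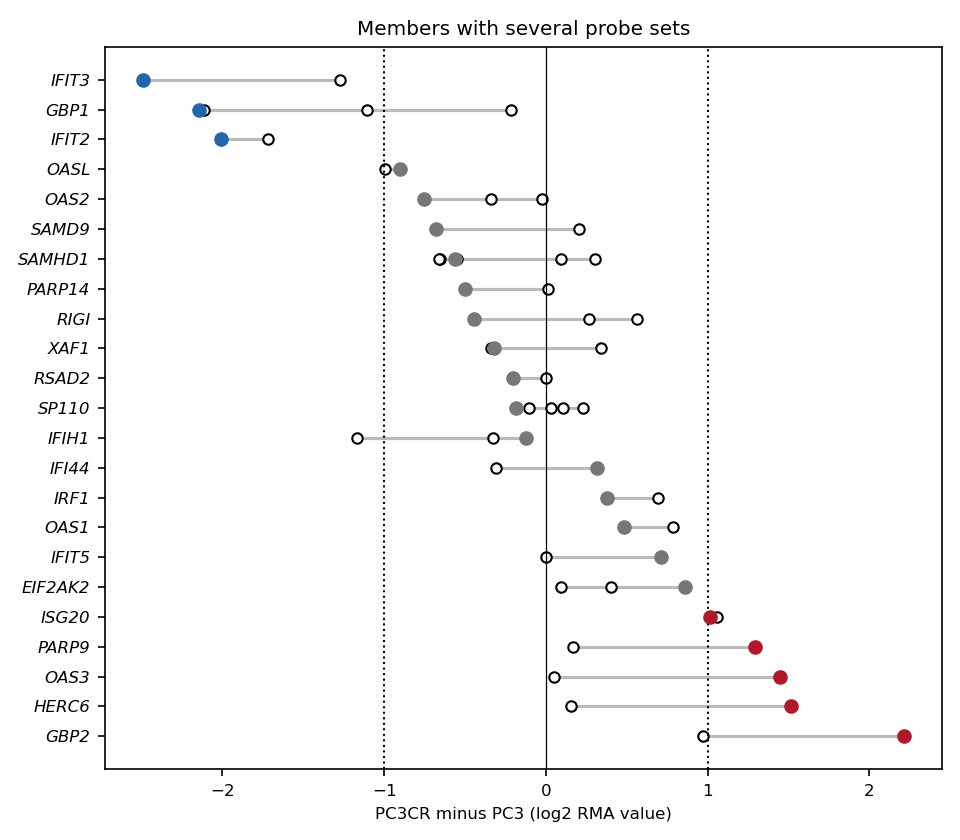
PC3CR minus PC3 (log2 RMA value, horizontal axis) of every probe set of the 23 members that had several, with the probe set used filled (blue at least 2-fold lower, red at least 2-fold higher, grey within 2-fold) and the others open. Dotted lines mark 2-fold. The probe sets of IFIT2, IFIT3 and ISG20 lie together past 2-fold, whereas those of OAS3, HERC6 and PARP9 are spread from near 0.

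Other genes of the interferon pathway were measured from a separate list of 52, of which 48 had a value. Past 2-fold, 2 of these 48 genes were higher and 1 was lower (4.17% and 2.08%, against 9.84% and 6.72% of all genes), and their median was -0.06. All 18 measured interferon genes, alpha, beta, gamma, lambda and others, lay within 2-fold, with values of 2.10 to 4.89 in PC3 and 2.10 to 4.61 in PC3CR. For 17 of the 18 both values were below the median of all probe sets, so a difference in interferon transcripts was not detectable in these data. These 17 count among the 48, so the shares past 2-fold include many genes where a difference is hard to read. IFNAR1 and IFNAR2, the chains of the type I interferon receptor, differed by 0.16 and 0.58. IFNGR1 and IFNGR2, the chains of the interferon gamma receptor, differed by 0.46 and 0.55, although the mean of the 3 probe sets of IFNGR1 was -0.07. IFNLR1 and IL10RB, which form the interferon lambda receptor, differed by -0.09 and 0.93. Leaving out cross-hybridising probe sets moved IFNAR2 to 1.11.

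The receptor-bound kinases JAK1, JAK2 and TYK2 differed by 0.58, -0.19 and -0.04. Of the 5 JAK1 probe sets 3 were higher and 2 lower in PC3CR, and their mean was 0.15. STAT3, which answers chiefly to interleukin 6 family cytokines, had 6.92 in PC3 against 9.49 in PC3CR, differing by 2.57. Of its 4 probe sets 3 were past 2-fold higher and 1 differed by 0.00. SOCS3, a feedback inhibitor that STAT3 induces, had 8.75 and 6.83, a difference of -1.92. All 4 SOCS3 probe sets were lower, 2 of them past 2-fold, with a mean of -1.06. PIAS1, a SUMO ligase that inhibits STAT proteins, had 7.51 and 8.52, a 2.01-fold difference. It was short of 2-fold after loess centring (0.89) and with the mean of its 3 probe sets (0.68). The 15 genes listed under interferon induction, among them MAVS, TBK1, IRF3, CGAS and STING1, all lay within 2-fold. Of all genes 16.6% were past 2-fold. The differences of the 15 lay between -0.62 (TICAM1) and 0.93 (ADAR).

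The labelled cell type was checked against markers. The epithelial genes KRT8, KRT18, EPCAM and CDH1 had values of 8.75 to 11.69 in PC3 and 8.08 to 12.36 in PC3CR, and EPCAM differed by -2.49. Of 5 leukocyte markers 3 were below the median of all probe sets on both arrays, and the values of all 5 lay between 3.03 and 5.74 in PC3 and between 2.95 and 5.46 in PC3CR. PTPRC, the pan-leukocyte marker, had 3.03 and 2.95. The endothelial gene CDH5 had 3.24 and 3.28, and PECAM1 had 6.41 and 5.81. The fibroblast genes COL1A1 and DCN differed by -2.12 and -0.54, with the 5 COL1A1 probe sets averaging -0.79, and the part of the cells they mark was not tested. KLK3, which encodes prostate-specific antigen, had 8.04 and 8.08 on a cross-hybridising probe set. The probe set names belong to the Human Genome U133 Plus 2.0 array, whereas in the methods the array is the Human Gene 1.0 ST.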

How the data were processed

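The authors normalized both arrays with RMA and deposited log2 values for 54613 probe sets. Per the labels, Affymetrix Expression Console 1.4 and Transcriptome Analysis Console 3.1 were used. RMA makes the arrays alike in distribution, so a difference in total RNA per cell cannot be seen. The platform annotation gave 1 symbol to 41091 probe sets, several to 1801 and none to 11721, and Entrez IDs gave current RefSeq (GRCh38.p14) symbols. For each gene the probe set brightest on average over both arrays was used.

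Differences were counted by the 2-fold rule of the methods. With 1 array per cell line no test was made. Text names every measured member, and of other pathway genes those past 2-fold, the receptor chains and the kinases. GBP3, the named neighbours of the clusters (ABCG2, NAP1L5, LIPA, PTGFR, BACE2, RIPK4 and HSPBAP1) and the named induction genes were added after their values were seen. Members and lists were chosen with earlier results of these data known. Alternatives were other fold thresholds, a floor at the array median, other probe set choices and 3 scalings (median centring, loess with a span of 0.4, quantile normalization). The recovery of planted differences was checked on simulated data with a single probe set per gene. That check did not cover the counts or the choice of probe sets. Protein sequences were not used here. Software: statsmodels 0.14.6, pandas 2.3.3, numpy 2.4.6 and matplotlib 3.10.9 on Python 3.11.15.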

Additional observations from a re-analysis of the deposited data

How the results depend on the processing

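With 1 array per cell line no replicate could be left out, and no paired analysis was possible because each group held 1 sample. Shifts of a median by over 0.1, and of a count by over 1.5 times, are given here. All 11 lower calls held under the floor, the 3 scalings and the mean of probe sets. That mean could change only IFIT2, IFIT3 and GBP1, since every other lower member had 1 probe set. Without cross-hybridising probe sets 9 held, since IFITM2 and IFITM3 then had no value. No member past 2-fold turned sign under these settings. The number of higher members, 8, was 5 with the mean of probe sets, 5 after loess centring and 2 at 4-fold. The higher pathway genes, 2, numbered 1 after loess centring, 1 after quantile normalization, 4 at 1.5-fold and 1 at 4-fold, and the lower ones, 1, numbered 6 at 1.5-fold and 0 at 4-fold. With the mean of probe sets the median was -0.12 for sensors, -0.23 for effectors, 0.84 for the ISG15 system and -0.052 for other induced genes. Without cross-hybridising probe sets it was 0.18 for sensors, -3.31 for IFITM genes and -0.0036 for other induced genes. With the floor it was -0.12 for sensors and -1.28 for effectors. After loess centring it was -0.39 for sensors, 0.93 for the ISG15 system and 0.24 for signalling genes, and after quantile normalization -0.42 for sensors and 0.25 for signalling genes. No cause of these shifts was tested, beyond the genes that each setting drops. The median of all genes moved by under 0.1 under each setting.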

Other observations

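A probe set that the annotation assigns to both IFITM1 and IFITM2 was not used for either gene. It had a value of 9.86 in PC3 against 6.72 in PC3CR, differing by -3.14. A probe set assigned to both RNF31 and IRF9 had 5.66 and 5.43, a difference of -0.23.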
